A study of Mus musculus with 71 samples.

Results

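The 9 genes described here, Ppp1r1b, Rgs9, Pde10a, Bcl11b, Foxp1, Adcy5, Ptpn5, Arpp21 and Cnr1, are known for high expression in medium spiny neurons, whether these carry the dopamine receptor Drd1 or Drd2. They were chosen by name and are 9 of the 18193 genes with a probe set on the arrays. Each gene was read from its brightest probe set, the one with the highest mean log2 intensity over 71 arrays. In the tissue experiments, mice in which Camk2a-Cre, a Cre transgene active mainly in forebrain neurons, deleted floxed GLP (Camk2a-Cre; GLPfl/fl) or floxed G9a (Camk2a-Cre; G9afl/fl) were compared with floxed littermates of their own line (GLPfl/fl or G9afl/fl), which kept the enzyme. These were 12 weeks old per the extraction protocol and 10 to 14 weeks per the design text, and striatum, cortex, hippocampus and hypothalamus were taken as total RNA. Each tissue group held 4 arrays, except 3 for G9a hippocampus controls and 2 each for G9a cortex mutants and controls. In the cell type experiments, G9a was deleted by Drd1-Cre or Drd2-Cre in mice that also carried Drd1-bacTRAP or Drd2-bacTRAP, a transgene that tags ribosomes in one kind of medium spiny neuron. Controls carried the tag and floxed G9a but no Cre. Each of these 4 groups had 3 arrays of polyribosome RNA, each from a pool of 5 mice aged 10 to 14 weeks per the design text. Levels are log2 intensities relative to the array median, so 0 is the median probe set and 1 unit is a doubling.

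Medium spiny neurons make up most of the striatum and receive dopamine from the midbrain. Dopamine acts through G protein coupled receptors on cyclic AMP and its kinase, and several of the 9 genes encode parts of that route. Adcy5 makes cyclic AMP, and Pde10a breaks down cyclic AMP and cyclic GMP. Ppp1r1b encodes DARPP-32, a phosphatase inhibitor switched on by the kinase, and Rgs9 shortens G protein signals. Ptpn5 encodes STEP, a striatum-enriched tyrosine phosphatase, Arpp21 a kinase substrate that binds RNA, Cnr1 the cannabinoid receptor CB1 that lowers transmitter release, and Bcl11b and Foxp1 transcription factors of striatal development. GLP (gene Ehmt1) and G9a (gene Ehmt2) are partner enzymes that dimethylate lysine 9 of histone H3, a mark of silent genes.

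Promoter sequence is shown for Cnr1, which differed least between striatum and hippocampus and was called in both mutants, and for Rgs9, which differed most from hippocampus after Ppp1r1b. The RefSeq promoter table (GRCm38.p6) matched 8 of the 9 genes, with 22 windows, and Ppp1r1b had none. Windows are the first 250 bases of each promoter record, printed 5′ to 3′ on the strand of the gene, and capitals mark CG dinucleotides. The Cnr1 window printed, the richest in CG of that gene, lies at chr4:33924014-33924263 (plus strand) and the Rgs9 window at chr11:109298182-109298431 (minus strand). The Rgs9 window lies wholly upstream of the RefSeq gene, whose 5′ end is at 109298181. Where motifs lie relative to a start site was not analysed here.
Cnr1: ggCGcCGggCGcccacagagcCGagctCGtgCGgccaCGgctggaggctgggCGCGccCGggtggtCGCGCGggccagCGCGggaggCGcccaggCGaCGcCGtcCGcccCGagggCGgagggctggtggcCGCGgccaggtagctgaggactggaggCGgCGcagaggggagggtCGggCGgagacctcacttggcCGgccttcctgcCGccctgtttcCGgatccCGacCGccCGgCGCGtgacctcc
Rgs9: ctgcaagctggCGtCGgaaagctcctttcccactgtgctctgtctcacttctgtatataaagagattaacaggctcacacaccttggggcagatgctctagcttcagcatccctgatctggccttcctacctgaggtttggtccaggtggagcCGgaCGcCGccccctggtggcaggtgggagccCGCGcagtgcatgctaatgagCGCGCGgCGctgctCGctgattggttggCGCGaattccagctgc
The printed Cnr1 window held 36 CG dinucleotides, where 97.8% of all 32851 windows held no more and the median window held 6. Other windows of Cnr1 held 28 and 5. The Rgs9 window held 14. Over the 22 windows of the 8 genes, the number of CG dinucleotides ran between 0 and 36, and the windows of Adcy5 (32) and 1 of the 3 Foxp1 windows (34) were the next richest. Both strands were searched for short motifs. TATAAA occurred once, in the Rgs9 window, against 12.4% of all windows, TGACG in 1 Foxp1 and 2 Arpp21 windows, against 17.8%, and TGACGTCA (1.55%, which contains TGACG) and TGTTTAC (3.17%) in none of the 22.

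The deleted genes followed the labels in most groups. Ehmt1 fell in mutant GLP striatum, cortex and hippocampus (log2 change -0.46, -0.76 and -0.58), and Ehmt2 fell in all 4 G9a mutant regions (striatum -1.28, cortex -1.76, hippocampus -1.17, hypothalamus -1.02; limma, adjusted p under the threshold of 0.05). In hypothalamus labelled GLP mutant, Ehmt1 was at 1.64, 1.70, 2.13 and 1.54, against 2.01, 1.75, 1.99 and 1.89 in controls. The change of -0.16 was not called (limma adjusted p 0.71). In pools labelled Drd2 mutant, Ehmt2 levels of 6.04, 5.91 and 5.99 lay within those of the Drd2 controls (5.18, 6.07 and 6.93). A fall was thus not called in these hypothalamus arrays, and a lower level was not seen in these pools. Whether the probe sets of Ehmt1 and Ehmt2 read the deleted exons was not analysed here. Ehmt2 was at 5.01, 1.56 and 4.93 in Drd1 mutant pools and at 6.22, 5.93 and 5.49 in Drd1 control pools, a change of -2.04 (SE 0.75) with an adjusted p of 0.94. Drd1 mutant pool 2, which had the 1.56, also had the lowest mean correlation with its own group of the 12 pools (0.885). Ehmt1, which was not the gene deleted there, was low on that pool too (1.53, the other Drd1 mutant pools 3.49 and 3.44). Drd1 control pools carried less Drd2 (3.96 ± 0.20) than Drd2 control pools (6.79 ± 0.67; SD, n = 3 each) and more Tac1, but Drd1 itself was similar in both (8.11 ± 0.43 and 8.46 ± 0.38).

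All 9 genes were higher in control striatum than in control cortex, hippocampus and hypothalamus, in both lines. The comparison asks how far these genes set the striatum apart before any deletion. In limma fits across all genes tested, with Benjamini-Hochberg adjustment, 9 of 9 were called higher in each of the 6 comparisons. Of all genes tested, 35.7% were called higher in GLP control striatum than in cortex, 20.6% than in hippocampus and 36.9% than in hypothalamus, and the G9a controls gave 35.5%, 18.3% and 34.7%. The median difference of the 9 genes was 1.36 over cortex, 2.89 over hippocampus and 4.14 over hypothalamus in GLP controls, against 0.09, 0.00 and 0.04 for all genes tested. In G9a controls the medians were 2.16, 3.07 and 3.75 for the 9 genes and 0.13, -0.05 and 0.05 for all genes. In whole tissue, fewer cells of a type and less RNA per cell cannot be told apart.

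**Figure D1:**
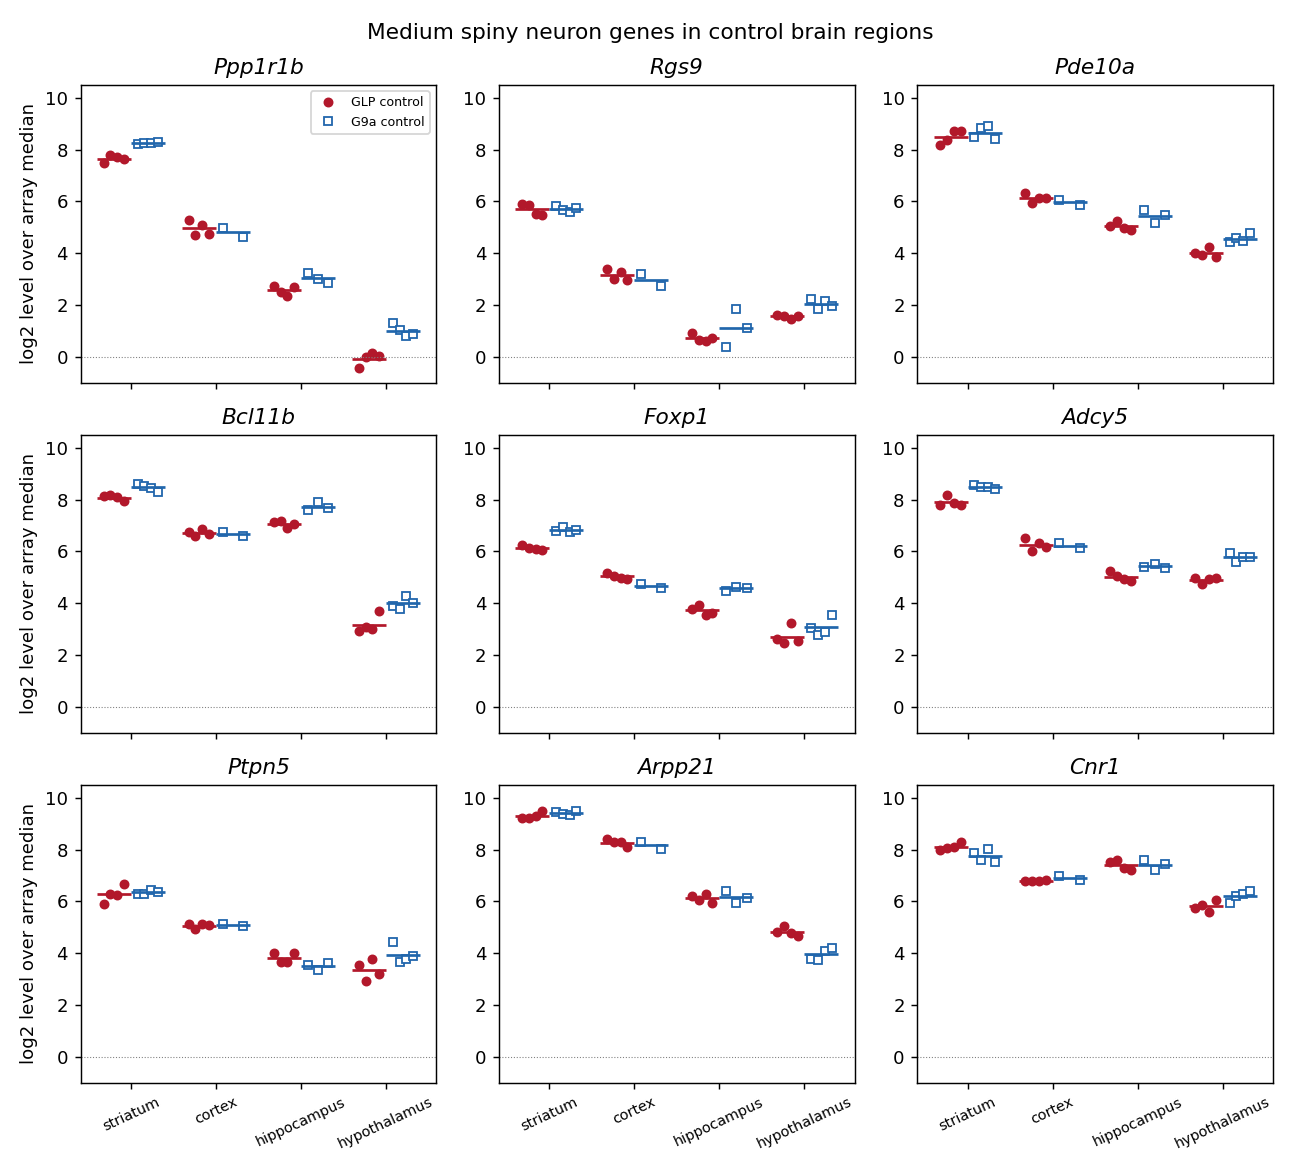
Level of each gene (log2 intensity over the array median, 0 marked by the dotted line) on every control array, with striatum left of the other regions. Filled circles are GLP controls, open squares are G9a controls and bars are group means. Striatum has the highest group mean for all 9 genes.

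Ppp1r1b, the DARPP-32 gene, had the widest differences. It was at 7.48, 7.78, 7.71 and 7.65 in GLP control striatum, against 5.29, 4.72, 5.10 and 4.73 in cortex, 2.73, 2.51, 2.35 and 2.71 in hippocampus and -0.45, -0.01, 0.13 and 0.05 in hypothalamus. The 4 regions did not overlap, and hypothalamus lay around the array median. The striatal excess was 2.70 log2 units over cortex, 5.08 over hippocampus and 7.73 over hypothalamus (SE 0.26 each). In G9a controls it was 3.44 (SE 0.31), 5.22 (SE 0.28) and 7.25 (SE 0.26). The hypothalamus differences are read against levels within 1.3 log2 units of the array median, and whether the probe set detected its transcript there was not analysed here.

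The other signalling genes had the same top region but different low ends. Rgs9 averaged 5.70 ± 0.23 in GLP control striatum, 3.16 ± 0.20 in cortex, 1.56 ± 0.08 in hypothalamus and 0.73 ± 0.14 in hippocampus (SD, n = 4 each), so hippocampus, not hypothalamus, was lowest, with no overlap between neighbours. The order was the same in G9a controls, where Rgs9 exceeded hippocampus by 4.6 (SE 0.19). Adcy5, the cyclase, averaged 7.90 ± 0.18 in GLP control striatum and 6.26 ± 0.21 in cortex, while hippocampus (5.01 ± 0.17) and hypothalamus (4.89 ± 0.11) overlapped. In G9a controls hypothalamus (5.78 ± 0.15) ranked above hippocampus (5.42 ± 0.09) without overlap. Pde10a, the phosphodiesterase, fell off in steps without overlap, at 8.49 ± 0.27 in striatum, 6.14 ± 0.16 in cortex, 5.04 ± 0.15 in hippocampus and 4.00 ± 0.16 in hypothalamus of GLP controls. Ptpn5, the STEP phosphatase, was at 6.28 ± 0.33 in GLP control striatum and 5.06 ± 0.09 in cortex, and again hippocampus (3.83 ± 0.20) and hypothalamus (3.37 ± 0.37) overlapped, while in G9a controls hypothalamus was the higher (3.94 ± 0.33 and 3.50 ± 0.13).

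The transcription factors and Arpp21 were also expressed well outside the striatum. Bcl11b averaged 8.08 ± 0.10 in GLP control striatum, 7.06 ± 0.12 in hippocampus, 6.73 ± 0.11 in cortex and 3.17 ± 0.37 in hypothalamus, so hippocampus ranked above cortex, as it did in G9a controls (7.73 ± 0.18, n = 3, and 6.67 ± 0.11, n = 2). Its excess over hippocampus was 1.02 (SE 0.13) in GLP controls and 0.74 (SE 0.14) in G9a controls. Foxp1 averaged 6.12 ± 0.09 in GLP control striatum and 5.03 ± 0.09 in cortex, and in G9a controls 6.82 ± 0.08 in striatum, with cortex (4.66 ± 0.11) and hippocampus (4.57 ± 0.09) overlapping. Arpp21 averaged 9.30 ± 0.12 in GLP control striatum, 8.26 ± 0.12 in cortex, 6.12 ± 0.15 in hippocampus and 4.83 ± 0.17 in hypothalamus.

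Cnr1, the cannabinoid receptor gene, had the smallest excess of the 9 genes over hippocampus and over hypothalamus in both lines. It was at 8.0, 8.04, 8.11 and 8.30 in GLP control striatum, against 7.5, 7.59, 7.28 and 7.19 in hippocampus, 6.78, 6.77, 6.80 and 6.82 in cortex and 5.73, 5.85, 5.60 and 6.03 in hypothalamus. No 2 regions overlapped, and the excess over hippocampus was 0.72 (SE 0.11). In G9a controls Cnr1 was at 7.87, 7.59, 8.01 and 7.53 in striatum, against 7.58, 7.20 and 7.42 in hippocampus, and these arrays overlapped. That difference was 0.35 (SE 0.12, limma adjusted p 0.019). It lost the call when hippocampus control 2, striatum control 1 or striatum control 3 was left out, with differences of 0.25, 0.31 and 0.26 and adjusted p of 0.166, 0.0606 and 0.102.

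Other genes of the same neurons, from a list of 25 striatal projection neuron genes that includes Scn4b and Pde1b, gave similar counts: 23 of the 24 tested were called higher in striatum in 5 of the 6 comparisons and 22 of 24 over G9a hypothalamus. Of all genes tested, 24.9% were called lower in striatum than in cortex and 22.1% lower than in hippocampus in GLP controls, and 21.4% and 22.2% in G9a controls. Of 28 genes of dopamine, adenosine and cyclic AMP signalling, 15 were called higher and 6 lower than in cortex in GLP controls, and 15 higher and 3 lower in G9a controls. Of 19 paralogs and partners of the 9 genes, 6 were called higher and 8 lower than in cortex in GLP controls, and 8 higher and 7 lower in G9a controls. A list for the making and breakdown of endocannabinoids, the ligands of the Cnr1 receptor, did not follow Cnr1. Of its 9 genes tested, 8 were called lower in GLP control striatum than in cortex and 6 in G9a controls, and 7 and 6 were called lower than in hippocampus. Over hypothalamus, 7 and 6 of the 9 were called higher.

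Probe sets that read other stretches of the same genes mostly gave the same direction, but 2 of Arpp21 and the dimmer one of Cnr1 did not. The 9 genes have 35 probe sets, and 29 of them were tested between striatum and cortex: 25 were called higher and 3 lower in GLP control striatum, and 26 higher and 2 lower in G9a control striatum. These calls come from a fit over all probe sets, and the share of all probe sets called in it was not analysed here. Arpp21 accounted for 2 of the lower calls in each line. Its probe set 1419028_at averaged 4.56 in GLP control striatum and 5.88 in cortex, a difference of -1.32 (SE 0.12), and -1.13 (SE 0.15) in G9a controls. Its probe set 1442121_at differed by -1.03 and -1.73. Another, 1451280_at, tracked the brightest Arpp21 probe set over the 71 arrays (Pearson r 0.979). The brightest probe set, 1424248_at, used in all other paragraphs, was higher in striatum by 1.04 and 1.25. RefSeq lists 9 promoter windows for Arpp21, the most of the 8 genes, and which transcripts each probe set reads was not analysed here. The second and dim Cnr1 probe set, 1419425_at, averaged 0.86 in GLP control striatum and 1.57 in cortex (difference -0.72, SE 0.23), and 1.15 and 1.26 in G9a controls (difference -0.12, SE 0.28), so the Cnr1 order between these regions rests on its bright probe set.

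**Figure D2:**
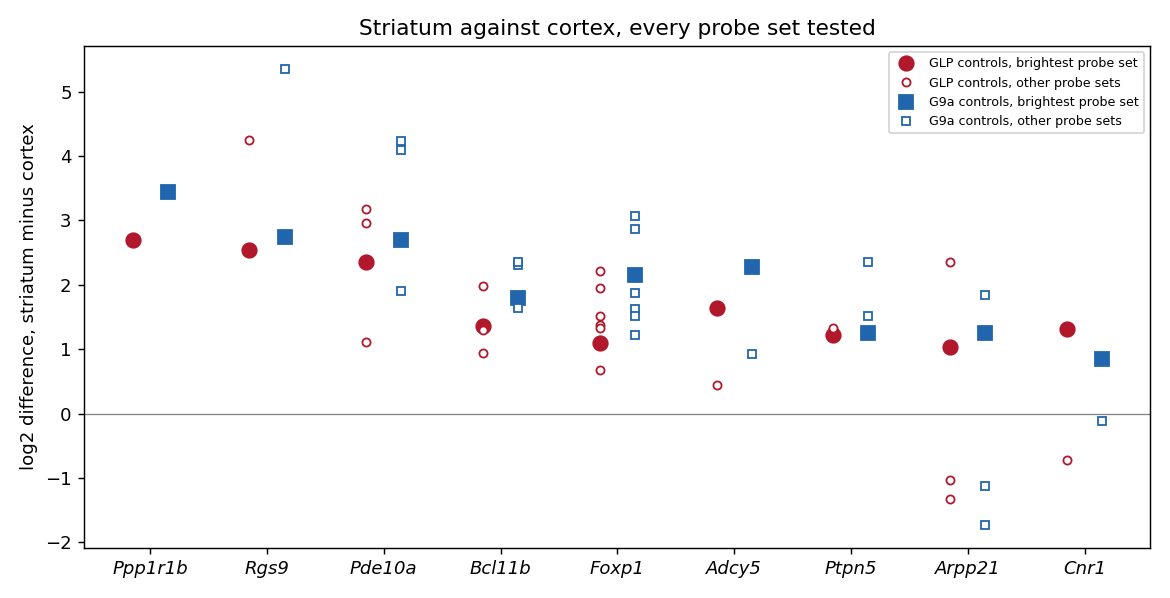
Difference between control striatum and control cortex (log2, striatum minus cortex) for every tested probe set of the 9 genes. Large filled symbols are the brightest probe set of each gene, small open symbols the others; circles are GLP and squares G9a controls. The points below 0 belong to Arpp21 and to the dim Cnr1 probe set.

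Across the 20 group means, which share arrays, tissue and scaling, the 9 genes moved together to unequal degrees. Pde10a tracked the mean of the other 8 most closely (Pearson r 0.988), and Bcl11b (0.867) and Cnr1 (0.802) least. Among 9117 genes bright enough to compare, Meis2, a transcription factor, followed the mean of the 9 most closely (r 0.988), with Diaph2, Scn4b and Gng7 next (0.986, 0.985 and 0.985). The single gene most like Rgs9 was Tbc1d8 (0.995), that most like Ptpn5 was Drd1 (0.989), and that most like Cnr1 was Pou3f1, at 0.945. These correlations are descriptions over 20 means that mainly separate striatal from other samples.

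Loss of either enzyme left 8 of the 9 genes without a call in striatum, and Cnr1 fell in both lines. The comparison asks whether striatal identity genes change when GLP or G9a is removed from forebrain neurons. In striatum 1 of 9 genes was called in GLP mutants, where 1.67% of all genes tested were called, and 1 of 9 in G9a mutants, where 3.02% were called. The median change of the 9 genes was -0.09 in GLP mutants (all genes -0.02) and -0.11 in G9a mutants (all genes 0.00). In simulated data for the G9a striatum comparison, 66% of genes changed by 0.5 and 94% of genes changed by 1 log2 unit were recovered. The changed genes were drawn from all genes, with a spread pooled over all tissue groups, so these are not rates for the 9 genes.

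In GLP mutant striatum Cnr1 was at 7.65, 7.56, 7.54 and 7.79, against 8.0, 8.04, 8.11 and 8.30 in GLP control striatum. Every mutant array lay below every control array. The change was -0.47 (SE 0.11, limma adjusted p 0.0112), which is 71.9% of the control level. Leaving out GLP striatum control 4, the highest control, gave -0.41 and an adjusted p of 0.0723, and over the other 7 arrays left out in turn the call held.

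In G9a mutant striatum Cnr1 was at 7.14, 7.17, 6.61 and 7.17, against 7.87, 7.59, 8.01 and 7.53 in G9a control striatum. Again no arrays overlapped. The change was -0.72 (SE 0.11, adjusted p 1.6e-05), or 60.6% of the control level. It ran from -0.80 to -0.59 when each array was left out, with adjusted p of at most 0.000525. The shared fit takes its spread from all tissue groups, and the Cnr1 SD was 0.27 in these mutants and 0.23 in controls. With the compared groups alone the limma adjusted p was 0.0225. The dim second probe set fell as well. It averaged 0.01 in G9a mutants and 1.15 in G9a controls, a change of -1.13 (SE 0.23, adjusted p 0.00154), and in GLP striatum the change was -0.64 (SE 0.23, adjusted p 0.286). The GLP and G9a changes of Cnr1 differed by 0.25 (SE 0.16, 95% interval -0.07 to 0.57, adjusted p 0.81).

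**Figure D3:**
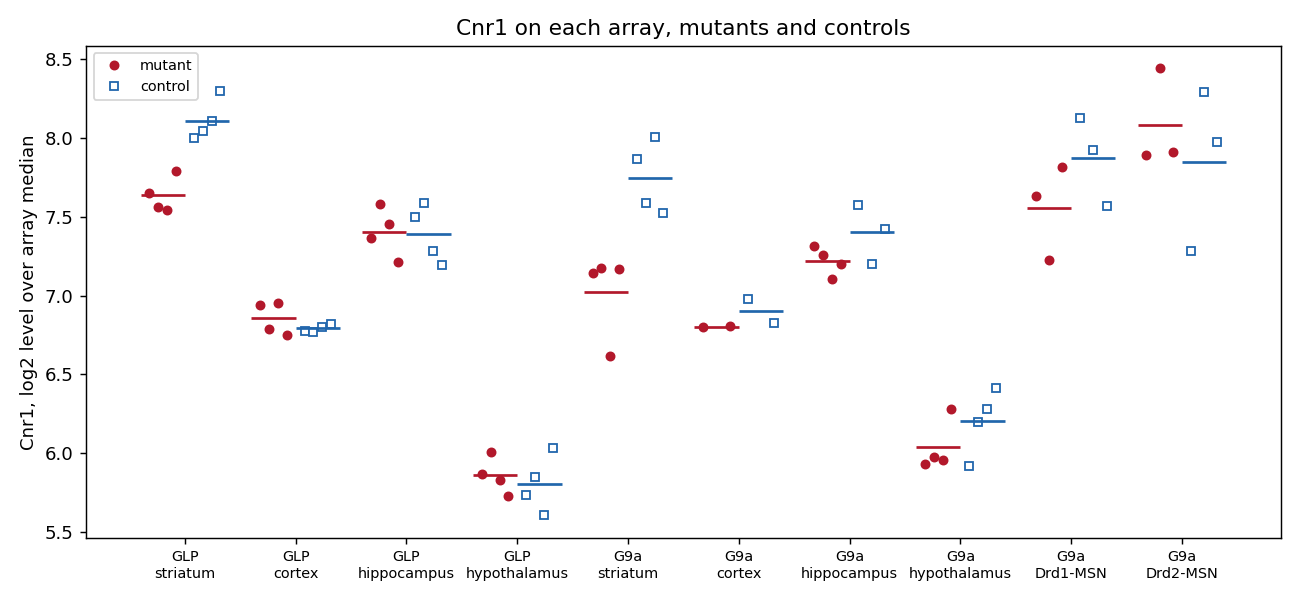
Cnr1 level (log2 intensity over the array median) on each array, mutants (filled circles) left of controls (open squares) for the 8 tissue comparisons and the 2 polyribosome comparisons. Bars are group means. Mutant and control arrays separate in striatum of both lines and in G9a cortex (2 arrays a group), with striatal mutants at 7.54 to 7.79 (GLP) and 6.61 to 7.17 (G9a).

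Other cell types were uneven between these striatal arrays. Markers of cortical and hippocampal excitatory neurons, genes that medium spiny neurons largely lack, were called higher in G9a mutant striatum for 4 of the 5 tested (Slc17a7, Tbr1, Neurod6 and Neurod2, by 1.79 to 2.88). The fifth, Nrgn, which medium spiny neurons also express, was at 3.89 to 4.25 in mutants and 3.60 to 4.68 in controls, and Emx1 lay below the array median on every array of both groups. The linear level summed over the 6 genes was 25.5 to 41.5 times the array median in mutants and 14.7 to 47.7 in controls. Without Nrgn, the sum was 10.7 to 22.5 in mutants, against 2.18, 2.58 and 2.99 on 3 control arrays and 22.1 on G9a striatum control 3, so that control alone reached the level of the mutants. Cnr1 was at 8.01 on control array 3, the highest of the 4, and without it the change was -0.64 (adjusted p 0.000346). In GLP striatum 0 of the 5 passed in limma, and the level summed over the 6 genes was 31.9 to 91.3 in mutants and 29.5 to 51.2 in controls, or 2.94 to 55.0 and 6.52 to 29.3 without Nrgn. Summed Drd1-type markers were 487 to 543 in G9a mutant striatum and 572 to 702 in controls. In GLP striatum they were 473 to 554 in mutants and 490 to 557 in controls. Drd2-type markers summed to 382 to 512 in G9a mutants and 501 to 548 in controls. In GLP striatum those sums were 444 to 525 in mutants and 498 to 537 in controls. Choroid plexus markers summed to 815 to 1111 in G9a mutant striatum and 125 to 1232 in controls. The GLP striatum sums were 67.7 to 167 in mutants and 85.4 to 834 in controls. None of the genes tested of the other 9 marker lists, which cover Drd1-type, Drd2-type and hypothalamic neurons, striatal interneurons, glia, choroid plexus and endothelium, was called in either striatum by limma. The part of these markers in the Cnr1 result was not tested.

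Pde10a and Bcl11b came next in G9a mutant striatum but were not called. Pde10a was at 8.23, 8.52, 7.79 and 8.18 in mutants, against 8.48, 8.85, 8.90 and 8.39 in controls. Mutant array 2 overlapped the controls, and the change was -0.48 (SE 0.15, adjusted p 0.0663), passing the threshold at -0.59 without mutant 2 and at -0.57 without control 4 (adjusted p 0.0243 and 0.0321). Its second probe set, 1419389_at, changed by -0.58 with an adjusted p of 0.0353 in a fit over all probe sets. Bcl11b was at 8.08, 8.15, 8.07 and 8.09 in mutants, against 8.60, 8.53, 8.46 and 8.28 in controls. These groups did not overlap, and the change was -0.37 (SE 0.13, adjusted p 0.125). Over 9 alternative settings its adjusted p ran from 0.0106 to 0.373, and it was called with the compared groups alone (0.0139), with array weights (0.0106) and with the replicate block (0.0263). In GLP mutant striatum the same genes changed by -0.09 (Pde10a, SE 0.15) and -0.03 (Bcl11b, SE 0.13).

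None of the remaining genes was called in either striatum. Ppp1r1b was at 7.49, 7.59, 7.74 and 7.80 in GLP mutant striatum, against 7.48, 7.78, 7.71 and 7.65 in controls, and at 8.24, 8.13, 8.18 and 8.32 in G9a mutant striatum, against 8.22, 8.24, 8.24 and 8.31 in controls. The groups overlapped throughout, with changes of 0.00 (95% interval -0.51 to 0.52) and -0.04 (-0.55 to 0.48). These intervals draw on the spread of all tissue groups, where the Ppp1r1b SD reached 1.28 in G9a hypothalamus mutants. In the striatal groups that SD was 0.04 to 0.14. Rgs9 changed by -0.19 and 0.03, Adcy5 by 0.09 and -0.12, Ptpn5 by -0.19 and -0.05 and Arpp21 by -0.06 and -0.11 in GLP and G9a striatum (SE 0.13 to 0.17). Foxp1 was at 5.75, 5.86, 6.0 and 5.82 in GLP mutants, against 6.25, 6.12, 6.08 and 6.05 in GLP controls, without overlap, a change of -0.27 (SE 0.16, adjusted p 0.60). The 3 probe sets called lower in G9a striatum, of the 30 tested for the 9 genes, were both of Cnr1 and 1419389_at of Pde10a, and 1 was called higher, Arpp21 probe set 1419028_at (0.48, SE 0.12, adjusted p 0.018). The share of all probe sets called in that fit was not analysed here.

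**Figure D4:**
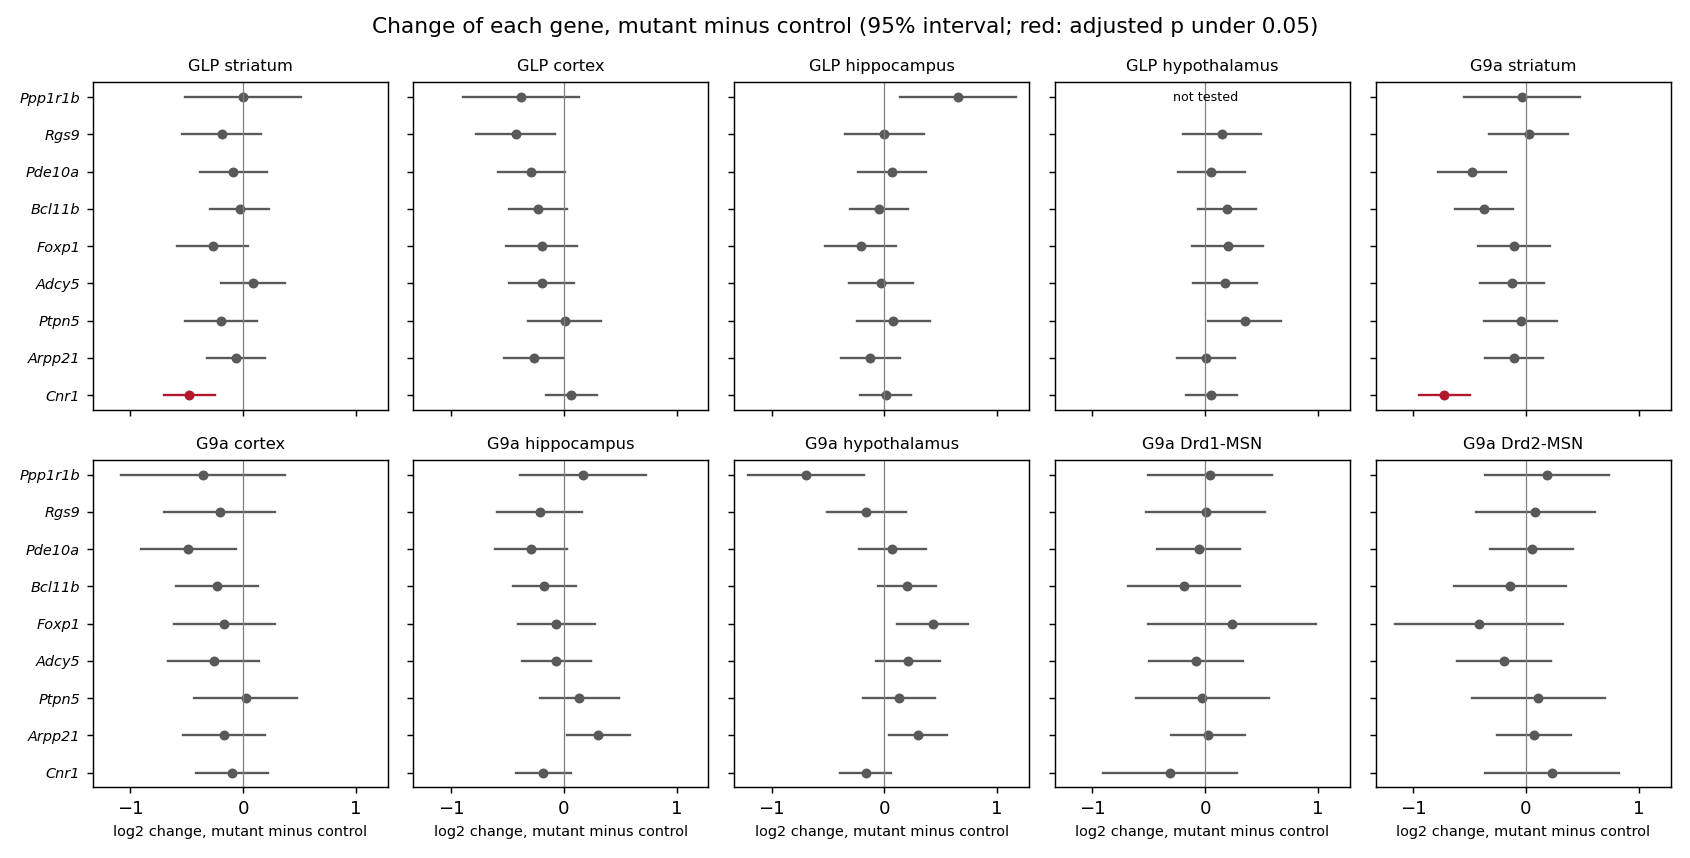
Log2 change (mutant minus control) of each gene with its 95% interval in the 10 mutant comparisons, 5 panels to a row. Red marks an adjusted p under 0.05: Cnr1 in GLP striatum and in G9a striatum.

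Of the 24 other projection neuron genes tested, 1 fell in GLP mutants, Rasgrp2 (-0.50, adjusted p 0.025), an exchange factor for small G proteins, and 2 fell in G9a mutants, Sh3rf2 (-1.11, adjusted p 0.00155) and Strn (-0.40, adjusted p 0.0312), with none called higher. Of all genes tested, 0.52% were called lower in GLP mutant striatum and 1.15% in G9a mutant striatum. None of the 9 endocannabinoid genes, the 28 genes of dopamine, adenosine and cyclic AMP signalling or the 18 paralogs and partners of the 9 genes was called in either line by limma. Median changes of these 3 lists ran from -0.08 to 0.09.

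The fall of Cnr1 was set against its change elsewhere. In GLP mutants Cnr1 changed by 0.07 in cortex, 0.01 in hippocampus and 0.06 in the hypothalamus labelled mutant, and in G9a mutants by -0.10 (SE 0.16), -0.18 (SE 0.12) and -0.17 (SE 0.11). The change in striatum minus the mean of the other 3 regions, a contrast added after these values were seen, was -0.57 (SE 0.14, adjusted p 0.0256) for G9a, where 0.623% of all genes tested were called, and -0.52 (SE 0.13, adjusted p 0.0585) for GLP, where 0.346% were called. The G9a contrast lost its call without striatum mutant 3 (-0.44, adjusted p 0.165), striatum control 3 (-0.49, 0.111), striatum control 1 (-0.53, 0.0922) or cortex control 2 (-0.55, 0.0606). The GLP contrast passed when hippocampus mutant 4, hippocampus control 1 or 2, or hypothalamus mutant 4 or control 4 was left out, at -0.54 or -0.53 (adjusted p 0.0286 to 0.0472). None of the other 8 genes passed in either contrast.

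In cortex, most of the 9 genes lay a little below control in both lines, and none was called. The GLP cortex fit called 0 of 9 (2 lower at an unadjusted p under 0.05), where 1.54% of all genes tested were called. The G9a cortex fit called 0 of 9 (1 lower), where 0.728% were called. These shares are at the adjusted threshold. The share of all genes at an unadjusted p under 0.05 was not analysed, here or in the paragraphs below. Of the 9, 7 lay below 0 in GLP cortex and 8 in G9a cortex, where 49.2% and 56.6% of all genes did, and the medians were -0.23 and -0.21 (all genes 0.00 and -0.02). Mutant and control arrays did not overlap for 2 of 9 genes in GLP cortex, against 9.99% of all genes, and for 7 of 9 in G9a cortex with 2 arrays a group, against 45.7% of all genes.

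Rgs9 was at 2.81, 3.03, 2.51 and 2.58 in GLP mutant cortex, against 3.38, 3.00, 3.26 and 2.98 in controls. Mutant 2 overlapped the controls, and the change was -0.43 (SE 0.17, adjusted p 0.474). Pde10a was at 5.59 and 5.36 in G9a mutant cortex, against 6.07 and 5.85 in controls. The groups did not overlap, and the change was -0.48 (SE 0.21, adjusted p 1.00). Cnr1 and Ptpn5 changed by 0.07 and 0.01 in GLP cortex. Summed Drd2-type markers, which medium spiny neurons express, were 53.2 to 81.1 in GLP mutant cortex and 75.1 to 104 in controls, and 51.9 to 59.4 in G9a mutant cortex and 64.8 to 79.9 in controls. Drd1-type markers were 109 to 133 in GLP mutant cortex and 135 to 173 in controls, and 99.8 to 114 in G9a mutant cortex and 132 to 159 in controls. The part of these markers in the cortical values was not tested.

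In hippocampus none of the 9 genes was called in GLP mutants (1 higher at an unadjusted p under 0.05; limma called 2.05% of all genes tested) or in G9a mutants (1 higher; 2.72%). Ppp1r1b was at 3.25, 3.37, 3.27 and 3.01 in GLP mutant hippocampus, against 2.73, 2.51, 2.35 and 2.71 in controls. The groups did not overlap, yet the change of 0.65 (SE 0.26) had an adjusted p of 0.335 in the fit of all tissue groups. With the compared groups alone the limma adjusted p was 0.00915. Of 7 choroid plexus markers tested there, 6 were called higher in mutants, among them Clic6, Kcne2, Folr1 and Kl, and their summed level was 1083 to 1232 in mutants and 318 to 1003 in controls. Their part in the Ppp1r1b value was not tested. In G9a hippocampus Arpp21 changed by 0.31 (SE 0.14, adjusted p 0.347) and Pde10a by -0.29 (SE 0.16).

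In hypothalamus 8 of the 9 genes passed the filter on low values in GLP arrays, where Ppp1r1b sat around the array median, and all 9 in G9a arrays. None was called in arrays labelled GLP mutant (1 higher at an unadjusted p under 0.05; limma called 1.01% of all genes) or in G9a mutants (2 higher and 1 lower; 2.34%). Ppp1r1b was at 1.81, -0.09, 0.71 and -1.21 in G9a mutant hypothalamus, against 1.3, 1.03, 0.79 and 0.89 in controls. The mutant arrays spread to both sides of the controls, and the change was -0.70 (SE 0.26, adjusted p 0.133). Without mutant 1 it was -1.20 (adjusted p 0.000133). Foxp1 changed by 0.43 (SE 0.16, adjusted p 0.132), passing without mutant 1 (0.62) or control 4 (0.59), and Adcy5 (0.21) and Arpp21 (0.30) passed without mutant 2, at 0.50 and 0.44 (adjusted p 0.00116 and 0.0131). Mutant 2 had the lowest correlation with its own group of the G9a hypothalamus arrays, 0.949. Drd1 was higher in G9a mutant hypothalamus by 1.11, with overlap between arrays.

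No difference between the GLP and the G9a changes was called for any of the 9 genes. Interaction contrasts in limma called 0 of 9 in each region. At an unadjusted p under 0.05 there was 1 of 9 in hippocampus, Arpp21 at -0.43 (SE 0.19), and 0 of 9 elsewhere. Of all genes tested 0.00842% were called in striatum, 0.0168% in cortex, 0.157% in hippocampus and 0.00831% in hypothalamus. The standard errors of these differences ran from 0.16 to 0.44.

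In the polyribosome pools none of the 9 genes was called between pools labelled mutant and control. In Drd1 pools limma called 0 of 9 (0 at an unadjusted p under 0.05) and 0.0249% of all genes tested, and in pools labelled Drd2 mutant 0 of 9 (0 unadjusted) and 0.0165%. In simulated data for the Drd1 comparison 0% of genes changed by 0.5 and 0% of genes changed by 1 log2 unit were recovered. Those genes were drawn from all genes, with a spread pooled over all pool groups. Cnr1 was at 7.63, 7.23 and 7.82 in Drd1 mutant pools, against 8.13, 7.92 and 7.57 in Drd1 control pools. The groups overlapped, and the change was -0.31 (SE 0.27, 95% interval -0.91 to 0.28, adjusted p 0.94), an interval that holds both 0 and the G9a striatum value. Cnr1 was at 7.89, 8.44 and 7.91 in pools labelled Drd2 mutant, against 7.28, 8.29 and 7.97 in Drd2 control pools, a change of 0.23 (SE 0.27). The test of the difference between the 2 cell types gave 0 of 9 genes (0 unadjusted), and 0% of all genes were called. None of the genes of the 4 related lists was called in either pool comparison of mutants with controls.

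Set against Drd2 control pools, Drd1 control pools had more Arpp21. It was at 10.56, 10.42 and 10.25 in Drd1 control pools, against 9.55, 9.94 and 10.02 in Drd2 control pools. The groups did not overlap, and the difference was 0.57 (SE 0.15, adjusted p 0.0255). Read from the brightest probe sets, Arpp21 was the only one of the 9 genes called in either direction, where 15.4% of all genes were called and 7.7% called higher. It lost the call without Drd2 control 1, Drd1 control 1 or Drd1 control 2 (0.43, 0.50 and 0.57, adjusted p 0.0709, 0.0817 and 0.0801). After quantile normalization the Arpp21 difference was 0.28 (limma adjusted p 0.243). Rgs9 (0.69, SE 0.24) and Pde10a (0.46, SE 0.17) were not called, with adjusted p of 0.0751 and 0.0917. Other probe sets read differently. With the lower probe set, the dimmest whose mean exceeded the array median, Pde10a was higher in Drd1 control pools by 3.13 (limma adjusted p 0.00584). By the same reading Cnr1 was higher by 1.57 (limma adjusted p 0.0343). Adcy5 was at 8.36, 8.34 and 7.90 in Drd1 control pools, against 8.65, 8.68 and 8.78 in Drd2 control pools. No arrays overlapped, and the difference was -0.50 (SE 0.19, adjusted p 0.097). Drd2 control 1 stood apart from the other Drd2 controls for Foxp1 (8.95, the others 7.47 and 7.37), Ppp1r1b (7.25, the others 8.01 and 8.18) and Cnr1 (7.28, the others 8.29 and 7.97). Summed microglia markers were 61.9 to 93.8 in Drd1 control pools and 142 to 257 in Drd2 control pools. Astrocyte sums were 373 to 474 and 503 to 569. Sums of oligodendrocyte markers (1830 to 2315 and 1928 to 2339) and choroid plexus markers (139 to 1543 and 91.9 to 380) overlapped. The part of these markers in the differences between pools was not tested.

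Pools and whole striatum could be set side by side only relative to all genes, since they differ in RNA source. On the deposited scale 6 of 9 genes were called higher in Drd1 control pools than in G9a control striatum, where 57.8% of all genes were, and 4 of 9 in Drd2 control pools, where 59% were. The median gene was higher by 0.63 and 0.60. Taken relative to that median, 3 genes lay above and 6 below in Drd1 pools (-0.92 to 0.99), and 2 above and 7 below in Drd2 pools (-1.05 to 0.51). After quantile normalization 1 of 9 was called higher and 5 lower in Drd1 pools, and 0 higher and 6 lower in Drd2 pools. On that scale 33.6% of all genes tested were called higher and 29.7% lower in Drd1 pools, and 29.6% higher and 25.5% lower in Drd2 pools. Rgs9 was at 7.16, 7.61 and 7.22 in Drd1 control pools, against 5.83, 5.67, 5.60 and 5.74 in whole G9a control striatum. It stood above the median gene by 0.99 in Drd1 pools and 0.32 in Drd2 pools. Relative to the median gene, Ppp1r1b lay at -0.69 in Drd1 pools and -1.05 in Drd2 pools, and Cnr1 at -0.51 and -0.50.

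**Figure D5:**
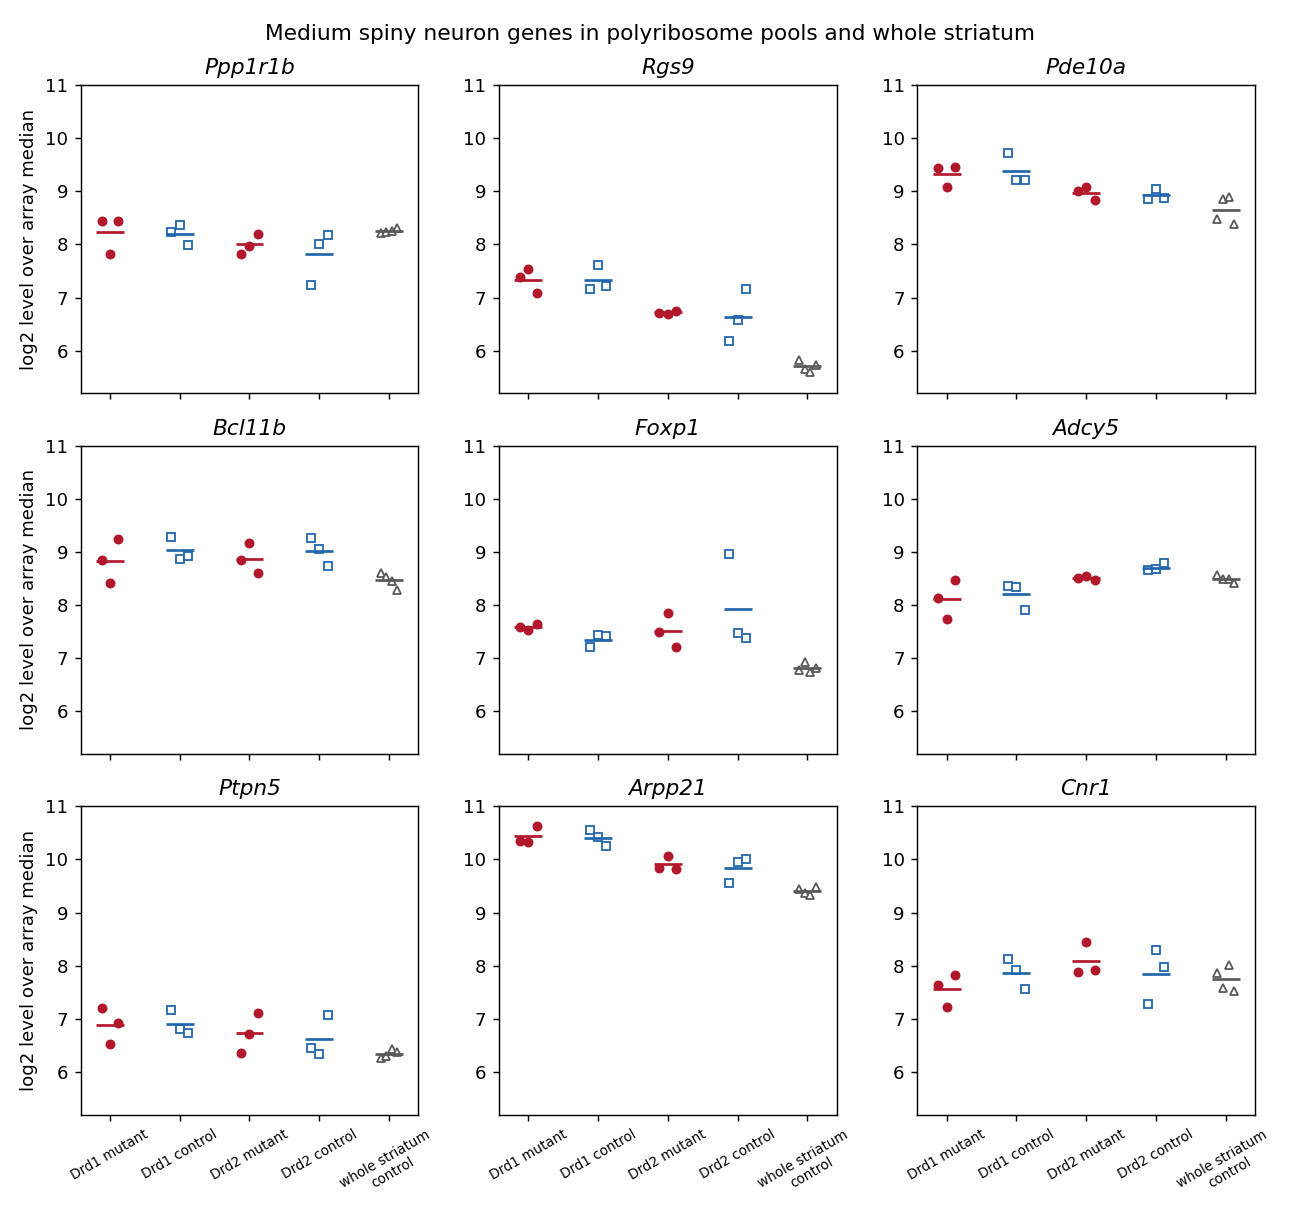
Level of each gene (log2 intensity over the array median) in Drd1 and Drd2 polyribosome pools, mutants (circles) left of controls (squares), and in whole G9a control striatum (triangles). Bars are group means. The median gene was higher in pools than in whole striatum by 0.63 (Drd1) and 0.60 (Drd2), so a shift of that size is shared by the array.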

How the data were processed

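The deposited table holds 1 intensity per probe set for 71 arrays of 45101 probe sets. Per the submitters' processing notes, the authors used GCRMA, and every deposited array has a median intensity of 1. The sources used here give no GCRMA version or genome build. Log2 was taken with no pseudocount. Of the probe sets, 34945 have 1 gene symbol in the platform table, 932 several and 9160 none, 64 control probe sets were left out, and 34741 matched a current gene record. The groups come from sample titles. The title of G9a hypothalamus control 4 was followed where its source name gives another mouse.

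The test was limma 3.58.1 (lmFit, eBayes with trend, R 4.3.3) over every gene: the 59 tissue arrays shared a fit, the 12 pools had their own, and all 71 entered where pools meet tissue. A gene entered a test when its log2 level exceeded 0 in at least n of the arrays compared, n being the size of the smaller group. P-values were adjusted by Benjamini-Hochberg over all genes tested, at 0.05. The fits were tested on simulated data. The number of arrays limits the precision, and the design text calls the arrays biological replicates.

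The members, gene lists and tests were chosen with earlier results of these data known. All 9 genes, the deleted genes and up to 4 called genes of each list per comparison are named. Same-numbered mutants and controls were checked for pairing: every pair correlated above 0.1 in Drd2 pools and, for GLP controls, between striatum and hippocampus and between striatum and cortex, where a replicate block changed no call. Alternatives covered filters, floor, normalization, arrays in the fit, trend, array weights, replicate block, probe set and leaving out each array. The fit over all probe sets, the striatum-minus-other-regions contrast and the pool values relative to all genes were added after the data were seen.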

Additional observations from a re-analysis of the deposited data

Results flagged for a closer look

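Among 117 gene-by-group sets of 4 arrays, 5 held an array whose gap to its nearest neighbour, over the range of the group, exceeded Dixon's critical value of 0.829; chance gives about 1 in 20. Pde10a was at 4.89 on GLP hippocampus mutant 4, below the other 3 (5.16 to 5.2). Pde10a was at 8.71 on GLP striatum mutant 4, above the other 3 (8.28 to 8.34). Adcy5 was at 5.24 on hypothalamus array 3 labelled GLP mutant, above the others (5.00 to 5.03). Cnr1 was at 6.28 on G9a hypothalamus mutant 4, above the others (5.93 to 5.98), and at 6.61 on G9a striatum mutant 3, below the others (7.14 to 7.17). Without that last array the Cnr1 change in G9a striatum was -0.59 (limma adjusted p 0.000525). The test of the G9a change in striatum against the mean change in the other 3 regions gave -0.57 for Cnr1 (SE 0.14, adjusted p 0.0256), and it was run after the values were seen.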

How the results depend on the processing

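Under 9 alternatives, 8 or 9 of the 9 genes were called, in either direction, in each of the 6 regional comparisons of controls, and leaving out 1 array gave 8 to 9 in G9a striatum against hippocampus and 9 in the other 5. In mutants the counts moved more. The share of all genes called under each alternative is not given in this section, so its counts cannot be set against that share. Floor at the array median, compared groups alone, array weights and replicate block each called 1 gene, Ppp1r1b, in GLP hippocampus. Array weights called 3 and replicate block 1 in GLP cortex, array weights 3 in G9a hypothalamus (0 to 2 with 1 array left out), compared groups alone 2 and array weights 3 in G9a striatum (1 to 2), and compared groups alone, array weights and replicate block 1 each, Pde10a, in G9a cortex. In GLP striatum the lower probe set called 0, and leaving out 1 array gave 0 to 1. Cnr1 in G9a striatum ran from -1.13 to -0.70 over 9 alternatives, with adjusted p of 4.9e-07 to 0.0586; the replicate block gave 0.0586 and called Bcl11b (0.0263) in place of Cnr1, although the numbers do not pair these arrays (r -0.12 to 0.21). Cnr1 in GLP striatum ran from -0.64 to -0.47, with adjusted p of 0.00167 to 0.234, the last with the lower probe set. The causes were not tested.

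Between Drd1 and Drd2 control pools, no intensity trend and replicate block called 0, array weights 3 and the lower probe set 2, Pde10a and Cnr1, both higher. Leaving out 1 array gave 0 to 2. Quantile normalization called 1, Adcy5, lower. With the lower probe set 8 genes were called between Drd2 pools and striatum (3 higher), and leaving out 1 array gave 3 to 5, and 5 to 6 for Drd1 pools. Signs turned in 25 cases. With the lower probe set, striatum minus cortex became -1.03 (GLP) and -1.73 (G9a) for Arpp21 and -0.72 and -0.12 for Cnr1. With quantile normalization, Drd1 pools minus striatum became -0.36 for Pde10a, -0.50 for Bcl11b, -0.25 for Foxp1, -0.16 for Ptpn5, -0.062 for Arpp21 and -0.75 for Cnr1, and Drd2 pools minus striatum -0.55 for Pde10a, -0.27 for Bcl11b, -0.61 for Adcy5, -0.43 for Ptpn5, -0.39 for Arpp21 and -0.68 for Cnr1. With the lower probe set, Drd1 pools minus striatum became -3.58 for Foxp1, 0.98 for Adcy5, -2.33 for Ptpn5 and -2.0 for Arpp21, and Drd2 pools minus striatum -2.68 for Pde10a, -2.36 for Foxp1, -1.09 for Ptpn5, -2.15 for Arpp21 and -1.11 for Cnr1.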
